A study of Mus musculus with 12 samples.

Results

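The acrosome and egg-binding genes described here are Acr, Acrbp, Acrv1, Spaca1, Spaca3, Zpbp, Zpbp2, Spam1, Izumo1 and Dpy19l2. They were taken from the expression table by their symbols. All 10 had a row, they are 10 of the 20788 genes in the table, and all 10 were among the 16388 genes with enough reads to be tested.

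RNA-seq was carried out on whole testes of F1 mice, 8 weeks old, from 4 groups of 3 libraries. The study's methods describe the F1 mice as offspring of normal ICR females and of ICR males whose testes were injected with a lentivirus at 4 weeks of age, while the design text of the series has the F1 testes themselves receiving the virus. The libraries of the knockdown group (KD in the sample titles) belong to the arm given an LV3 virus with hairpins against the long non-coding RNA lncRNA5251, and the 3NC libraries to the LV3 control virus. The libraries of the overexpression group (OV in the titles) belong to the arm given an LV5 virus that overexpresses lncRNA5251, and the 5NC libraries to the LV5 control virus. The strain is written as "IRC mouse" in the labels, and no engineered allele is named for any group. Whether the F1 mice carry sequence of the virus is not stated. By the methods every group descends from virus-injected males, with no uninjected group among these samples. lncRNA5251 has no row under that name, and its level could not be checked here. Whether each library is a separate animal is not stated in the labels, and the p-values therefore measure only how libraries of a group scatter, which may be technical.

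The acrosome is a cap-shaped vesicle that forms from the Golgi apparatus of round spermatids and spreads over the sperm nucleus. It holds enzymes that are released near the egg. Proteins of its membranes take part in binding the zona pellucida, the coat of the egg, and in fusing with the egg itself. Genes for these proteins are transcribed mostly in late spermatocytes and spermatids, and whole-testis RNA therefore reads them together with the share of those cells. In bulk samples, fewer cells of a type and less RNA per cell cannot be told apart.

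The libraries held 12719699 to 15771655 estimated reads, and a gene of the set had between 804 and 7392 reads in a library, for a counting SD of at most 3.53%. Germ and somatic markers of testis were present in every library, with Prm1 (protamine of elongating spermatids) at 2288 to 3503 CPM, Sycp3 (synaptonemal complex) at 190 to 296, Star (Leydig cells) at 51.5 to 188 and Sox9 (Sertoli cells) at 9.95 to 16.4. CPM are counts at a common library size after TMM scaling. In 2 libraries, 3NC replicate 2 and knockdown replicate 1, Ptprc, a gene of white blood cells, stood at 94.8 and 71.7 CPM against 2.12 to 6.91 in the other 10. In 4 libraries the mean log2 CPM of a list of 10 spermatocyte genes was high, at 6.93 in 3NC replicate 3, 7.12 in 5NC replicate 2, 6.99 in 5NC replicate 3 and 6.9987 in overexpression replicate 3, against 6.59 to 6.71 in the other 8. Crisp1, a gene of the epididymis, ranged from 9.86 to 239 CPM in 3NC and 5NC, was at 13.2 in knockdown replicate 1 and was below 1 in the other 5 libraries.

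Of the 10 genes, 9 had a RefSeq promoter window of GRCm38.p6, which runs from 250 bases before the transcript start to 50 bases after it, and Acr had none. Windows of 5 genes are printed, each in the direction of its gene. The first 4 belong to the genes that were lowest in all 3 5NC libraries, and Zpbp2, for which 5NC replicates 2 and 3 were the highest, is set beside them. The windows are Izumo1 at chr7:45621561-45621860 on the plus strand, Acrv1 at chr9:36692970-36693269 on the plus strand, Spaca1 at chr4:34050016-34050315 on the minus strand, Spaca3 at chr11:80858113-80858412 on the plus strand and Zpbp2 at chr11:98550847-98551146 on the plus strand. Capitals mark matches, on either strand, to 5 motifs chosen after the values were seen: a cAMP response element TGACGTCA, its core TGACG (which lies within the full element), a TATA box TATAAA, a GC box GGGCGG and a GT repeat GTGTGT. The cAMP response element is the site of the CREB and CREM factors, of which CREM is known for its role in spermatids.
Izumo1: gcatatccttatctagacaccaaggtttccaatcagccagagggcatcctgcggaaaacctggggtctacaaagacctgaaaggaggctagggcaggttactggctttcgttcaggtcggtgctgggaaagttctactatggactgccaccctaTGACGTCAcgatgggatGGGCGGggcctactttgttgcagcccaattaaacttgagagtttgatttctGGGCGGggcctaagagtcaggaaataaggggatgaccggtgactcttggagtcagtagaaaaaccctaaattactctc
Acrv1: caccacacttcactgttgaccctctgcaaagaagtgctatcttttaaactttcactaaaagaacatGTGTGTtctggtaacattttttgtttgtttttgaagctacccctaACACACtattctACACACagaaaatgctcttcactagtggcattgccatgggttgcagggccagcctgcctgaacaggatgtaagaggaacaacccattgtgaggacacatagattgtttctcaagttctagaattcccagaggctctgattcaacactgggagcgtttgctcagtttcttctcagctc
Spaca1: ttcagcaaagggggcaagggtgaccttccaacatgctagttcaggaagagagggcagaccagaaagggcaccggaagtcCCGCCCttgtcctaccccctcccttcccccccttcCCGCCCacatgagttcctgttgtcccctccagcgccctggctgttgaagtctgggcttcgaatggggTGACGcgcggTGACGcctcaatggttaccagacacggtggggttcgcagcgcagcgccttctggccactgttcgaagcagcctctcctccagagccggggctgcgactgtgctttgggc
Spaca3: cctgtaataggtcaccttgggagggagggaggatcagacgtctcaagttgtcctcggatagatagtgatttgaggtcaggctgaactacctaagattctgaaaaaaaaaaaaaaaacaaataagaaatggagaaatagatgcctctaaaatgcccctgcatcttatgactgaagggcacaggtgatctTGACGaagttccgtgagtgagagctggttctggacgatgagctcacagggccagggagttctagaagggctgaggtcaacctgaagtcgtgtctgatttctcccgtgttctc
Zpbp2: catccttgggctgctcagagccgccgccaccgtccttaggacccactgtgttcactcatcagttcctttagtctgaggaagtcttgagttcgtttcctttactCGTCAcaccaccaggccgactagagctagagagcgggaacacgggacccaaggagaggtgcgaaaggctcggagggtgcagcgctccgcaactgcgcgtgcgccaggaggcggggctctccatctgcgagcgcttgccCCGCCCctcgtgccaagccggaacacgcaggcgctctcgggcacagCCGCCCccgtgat

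Among the 9 genes with a window, the full cAMP response element was found in Izumo1 alone, 96 to 89 bases before the start, and 1.79% of all RefSeq windows of this length and 2.67% of those of tested genes hold it. The core was found in 6 of 9 genes (Acrbp, Dpy19l2, Izumo1, Spaca1, Spaca3 and Zpbp2), where 23.0% of genes with a RefSeq window hold it and 27.1% of the windows of tested genes do. The GC box was in 4 of 9 (Acrbp, Izumo1, Spaca1 and Zpbp2), against 35.7% of all windows and 55.1% of those of tested genes. The TATA letters were in 0 of 9, against 13.6% of all windows and 8.11% of those of tested genes, and the GT repeat in Acrv1 alone, against 17.4% and 14.5%. Of the 4 genes lowest in 5NC, Izumo1, Spaca1 and Spaca3 hold the core and Acrv1 does not, while Zpbp2 holds it too. GC content differed between these windows, from 43.3% with 1 CpG in Acrv1 to 64.0% with 26 CpG in Zpbp2, beside a median of 59.0% and 17 CpG over the windows of tested genes. A match describes the letters of these windows only.

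All 10 genes were abundant. On the length-scaled RPKM values of the authors, their means over the 12 libraries lay at the 84.0th to the 98.5th percentile of the tested genes. Acrbp, which binds the precursor of acrosin, was the highest at 336 RPKM (range 282 to 385). Zpbp2, a zona pellucida binding protein, followed at 231 (187 to 303), then Spaca1, a protein of the inner acrosomal membrane, at 185 (135 to 237) and Acrv1, a protein of the acrosomal matrix, at 180.0 (144 to 225). Acr, the protease acrosin, stood at 132 (106 to 150.2) and Spaca3, a lysozyme-like acrosomal protein, at 129 (102 to 165). Dpy19l2, which anchors the acrosome to the nuclear envelope, stood at 89.6 (78.6 to 107) and Zpbp, the paralog of Zpbp2, at 81.4 (71.0 to 93.9). Izumo1, the sperm protein needed for fusion with the egg, was at 54.9 (42.4 to 69.4), and Spam1, a hyaluronidase of the sperm surface and acrosome, was the lowest at 43.0 (32.4 to 58.3).

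Neighbours in this order overlapped in range over the 12 libraries, with Zpbp and Izumo1 as the 1 pair that did not. Within a library, Spaca1 was above Acrv1 in 7 of 12 and Acr above Spaca3 in 8 of 12, so that these pairs had no fixed order. Zpbp2 was above Spaca1 in 10 of 12 libraries and Spaca3 above Dpy19l2 in 11 of 12. The other 5 neighbouring pairs kept 1 order in all 12. Exons of Zpbp share 223 bases with Spata48 on the opposite strand, and exons of Izumo1 share 654 bases with Rasip1 on the same strand, so part of their reads could belong to either gene. Exons of Acrbp share 975 bases with Gm44597 on the same strand and 90 bases with the antisense gene 4930557K07Rik, which have no row of their own in the table.

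**Figure D1:**
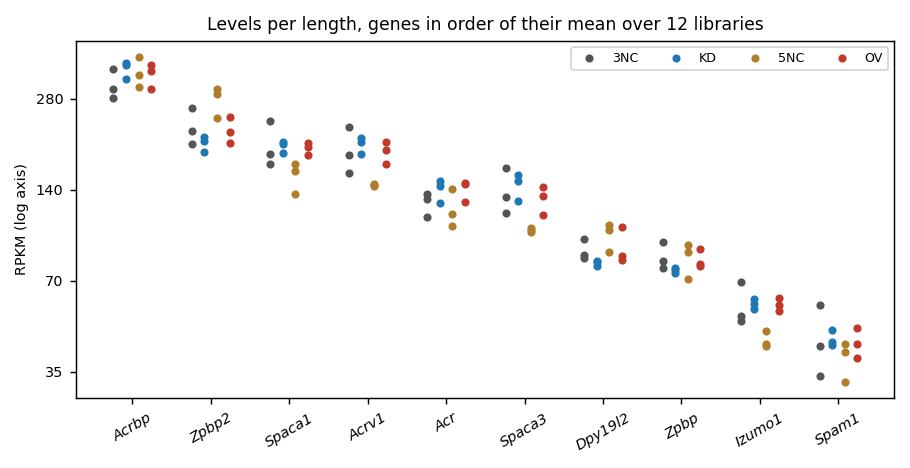
RPKM of the 10 genes on a log axis, with 1 point per library and 3 points per group. Means run from 336 for Acrbp to 43.0 for Spam1, and the ranges of neighbours overlap except between Zpbp and Izumo1.

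The enzymes of the acrosome and the partner of acrosin are described first. Acr lies on chromosome 15 from 89568326 to 89574585 in GRCm38. Acr was at 191, 147 and 189 CPM in 3NC replicates 1 to 3, and at 172, 204 and 214 in the knockdown group. In 5NC it stood at 192, 144 and 158 CPM, and in the overexpression group at 208, 208 and 177. The low values were those of 3NC replicate 2 and 5NC replicates 2 and 3, and the groups overlapped in every comparison.

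Acrbp lies on chromosome 6 from 125049689 to 125063267. Acrbp was at 428, 320 and 385 CPM in 3NC, and at 382, 447 and 458 in the knockdown group. Its 5NC values were 461, 364 and 400.01 CPM, and the overexpression libraries were at 446, 427 and 369. It moved with Acr from library to library, and its lowest value was that of 3NC replicate 2. Acrosin and the protein that holds its precursor thus had like profiles, with Pearson's r of log2 CPM of 0.839 over the 12 libraries, which share their depth and cell makeup.

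Spam1 lies on chromosome 6 from 24791188 to 24801048. Spam1 was at 67.6, 79.2 and 121 CPM in 3NC, and at 92.6, 88.7 and 87.0 in the knockdown group. The 5NC libraries held 63.1, 82.7 and 78.4 CPM, and the overexpression libraries were at 87.1, 78.1 and 96.7. This hyaluronidase had the widest ratio between libraries of the 10 genes, 1.91 between 3NC replicate 3 and 5NC replicate 1, and its groups overlapped in every comparison.

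Spaca3 lies on chromosome 11 from 80858365 to 80867814. Spaca3 was at 90.5, 74.1 and 117 CPM in 3NC, and at 98.7, 110.0 and 90.1 in the knockdown group. For 5NC the levels were 68.4, 68.8 and 68.1 CPM, and the overexpression libraries were at 99.8, 91.9 and 77.9. The 3 5NC libraries lay within 1 CPM of each other and below the other 9, of which 3NC replicate 2 was the nearest. At 951 to 1096 reads each, that spread is smaller than the counting SD, and so does not measure how well the level is known.

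Acrv1 lies on chromosome 9 from 36693220 to 36698843. Acrv1 was at 177, 143 and 226 CPM in 3NC, and at 189, 205 and 182 in the knockdown group. 5NC gave 139, 134 and 136 CPM, and the overexpression libraries were at 198, 185 and 163. As with Spaca3, the 5NC libraries were the 3 lowest of 12 and 3NC replicate 2 came next. Acrv1 and Spaca3 had the closest profiles of any pair of the 10 genes, with an r of 0.988.

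Of the proteins that build or hold the acrosome, Spaca1 lies on chromosome 4 from 34024874 to 34050191. Spaca1 was at 164, 164 and 236 CPM in 3NC, and at 188, 194 and 183 in the knockdown group. Its levels in 5NC were 128, 157 and 150.0 CPM, and the overexpression libraries were at 196, 177 and 185. All 3 5NC libraries were below the other 9, and 3NC replicate 3 was above all others.

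Dpy19l2 lies on chromosome 9 from 24557047 to 24696293. Dpy19l2 was at 275, 264 and 332 CPM in 3NC, and at 253, 272 and 274 in the knockdown group. The 5NC levels were 281, 343 and 333 CPM, and the overexpression libraries were at 283, 273 and 350.4. Its 4 high libraries were 3NC replicate 3, 5NC replicates 2 and 3 and overexpression replicate 3, which are the 4 in which the spermatocyte list was high. Whether the share of spermatocytes set this profile was not tested.

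Zpbp and Zpbp2 code for the zona pellucida binding proteins of the acrosome. Zpbp lies on chromosome 11 from 11279626 to 11462408. Zpbp was at 266, 266 and 341 CPM in 3NC, and at 256, 275 and 267 in the knockdown group. In the 5NC libraries it was at 242, 316 and 303 CPM, and in the overexpression group at 272, 274 and 309. The groups overlapped in every comparison, and the 4 highest libraries were the same 4 as for Dpy19l2.

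Zpbp2 lies on chromosome 11 from 98551097 to 98558665. Zpbp2 was at 267, 274 and 364 CPM in 3NC, and at 245, 278 and 288 in the knockdown group. Among 5NC libraries it read 319, 391 and 377 CPM, and the overexpression libraries were at 272, 293 and 325. Its 2 highest libraries were 5NC replicates 2 and 3, where Acrv1, Spaca3 and Izumo1 were among their lowest. The r of Zpbp2 was 0.889 with Dpy19l2 and -0.43 with Spaca3.

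Izumo1, the fusion protein, lies on chromosome 7 from 45621811 to 45628823. Izumo1 was at 72.9, 65.5 and 98.1 CPM in 3NC, and at 77.3, 83.9 and 79.1 in the knockdown group. The levels in 5NC were 56.7, 56.6 and 62.9 CPM, and the overexpression libraries were at 85.4, 76.0 and 78.6. Here too the 5NC libraries were the 3 lowest of 12, and 3NC replicate 3 was the highest.

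**Figure D2:**
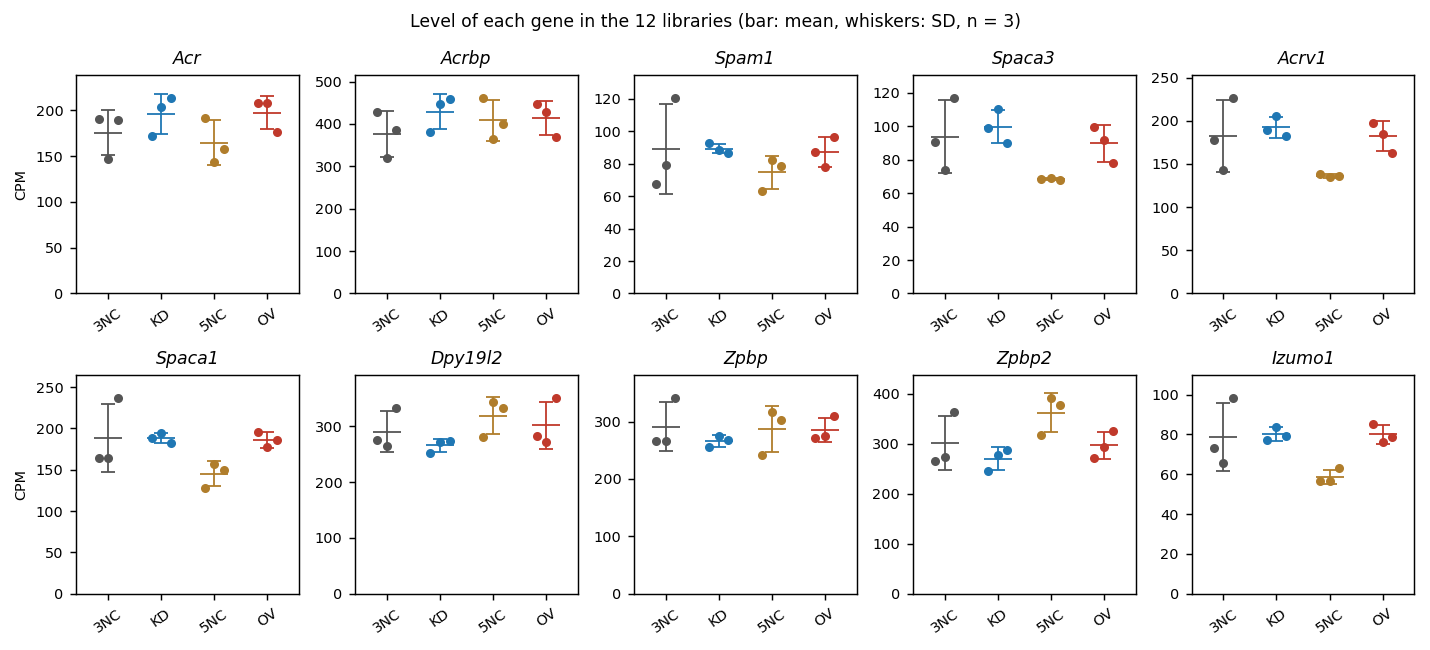
CPM of each of the 10 genes in the 12 libraries, by group, with the mean as a bar and the SD as whiskers (n = 3 libraries), on axes that start at 0. For Spaca3, Acrv1, Spaca1 and Izumo1 the 3 5NC libraries sit below the other 9, and for the other 6 genes they do not.

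The knockdown was compared with its own control to see whether the 10 genes differed in knockdown testes. No gene of the set passed the threshold, an adjusted p under 0.05, and the groups overlapped for all 10. Their log2 fold changes against 3NC ran from -0.16 for Zpbp2 to 0.19 for Acrbp, with a median of 0.01 beside -0.02 over all tested genes, and 7 of 10 were above 0. Acrbp had the smallest p of the set, at 429 ± 41.2 CPM (SD, n = 3) in the knockdown group and 377 ± 54.3 in 3NC, and its adjusted p was 0.764 by edgeR's quasi-likelihood test with Benjamini-Hochberg adjustment.

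Over all tested genes, 0% passed in this comparison, and 11.3% had groups that did not overlap in either direction. The 95% intervals of the edgeR fit for the 10 genes reached from a log2 fold change of -0.44, the lower bound of Zpbp2, to 0.47, the upper bound of Acrbp. The interval of each of the 10 genes held 0, and the lowest upper bounds were 0.13 for Zpbp2, 0.14 for Zpbp and 0.14 for Dpy19l2. The median of the set moved with each control library left out. Leaving out 3NC replicate 1 gave -0.05 and leaving out 3NC replicate 2 gave -0.08. Leaving out 3NC replicate 3, in which 6 of the 10 genes had their highest level, gave 0.22.

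The overexpression arm was compared with 5NC, the control virus of its own vector. No gene passed the threshold, while 0.311% of all tested genes did. In 4 genes, Izumo1, Acrv1, Spaca3 and Spaca1, all 3 overexpression libraries lay above all 3 5NC libraries, and 0 genes of the set lay wholly below. Over all tested genes 11.3% lay wholly above. The same 4 had an unadjusted edgeR p under 0.05 with the higher level in the overexpression group, where 7.07% of all tested genes did.

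Izumo1 was at 80.0 ± 4.83 CPM (SD, n = 3) in the overexpression group and 58.7 ± 3.63 in 5NC, a log2 fold change of 0.45 (SE 0.13, 95% interval 0.16 to 0.73). Its adjusted p was 0.187 by edgeR's quasi-likelihood test, the smallest of the set. Acrv1 was at 182 ± 17.5 and 136 ± 2.30 CPM, a log2 fold change of 0.42 (SE 0.14) with an adjusted p of 0.263. Spaca3 was at 89.9 ± 11.1 and 68.4 ± 0.378 CPM, a log2 fold change of 0.39 (SE 0.15) with an adjusted p of 0.332. Spaca1 was at 186 ± 9.45 and 145 ± 15.1 CPM, a log2 fold change of 0.36 (SE 0.13) with an adjusted p of 0.320. For these 4 genes the sizes correspond to 1.28 to 1.36 times the 5NC level, and none passed after adjustment over all genes.

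The other 6 genes overlapped between the overexpression group and 5NC. Acr had a log2 fold change of 0.26 (95% interval -0.04 to 0.56) and Spam1 of 0.22 (-0.18 to 0.63). Acrbp, Zpbp and Dpy19l2 had values of 0.02, -0.01 and -0.08. Zpbp2 had a value of -0.29 (95% interval -0.57 to 0.00), at 297 ± 26.7 CPM in the overexpression group and 362 ± 38.5 in 5NC, with an adjusted p of 0.424 by edgeR. The median of the 10 genes was 0.24 beside -0.01 over all tested genes.

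The vector controls were compared with each other, since a difference between them bears on every comparison with 5NC. No gene passed, while 0.128% of all tested genes did. Izumo1, Acrv1, Spaca3 and Spaca1 each had all 3 5NC libraries below all 3 3NC libraries, as did 6.17% of all tested genes, and 0 genes of the set lay wholly above. The same 4 had an unadjusted edgeR p under 0.05 with the lower level in 5NC, beside 6.55% of all tested genes. Against 3NC, the log2 fold changes in 5NC were -0.43 (SE 0.13) for Izumo1, -0.42 (SE 0.14) for Acrv1, -0.46 (SE 0.15) for Spaca3 and -0.38 (SE 0.13) for Spaca1, with adjusted p by edgeR of 0.296, 0.338, 0.334 and 0.374. Zpbp2 had the highest value of the set, 0.27 (95% interval -0.02 to 0.55).

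Both comparisons that involve 5NC use the same 3 libraries of it, and a low 5NC level enters both with opposite signs, so that neither is a check of the other. Set against the other 9 libraries at once, 5NC was lowest in all 3 of its libraries for 4 of the 10 genes and highest for 0 of 10. Of all tested genes, 3.08% had 5NC lowest. For each of the 4, the nearest other library was 3NC replicate 2, where Ptprc was high and all 10 genes were below their means. It was at 143 CPM for Acrv1, 164 for Spaca1, 74.1 for Spaca3 and 65.5 for Izumo1. The highest 5NC values were 139, 157, 68.8 and 62.9, and counting adds an SD of at most 3.53% to each value. By group means, the 4 genes stood at like levels in 3NC, the knockdown group and the overexpression group. The means were 78.9, 80.1 and 80.0 CPM for Izumo1 and 188, 188 and 186 for Spaca1. Both this likeness of 3NC to the treated groups and the size of the gap between 5NC and 3NC rested in part on 3NC replicate 3. Without that library the log2 fold changes of 5NC against 3NC were -0.23 for Izumo1, -0.22 for Acrv1, -0.26 for Spaca3 and -0.17 for Spaca1. Those of the knockdown group against 3NC were then 0.22, 0.28, 0.29 and 0.21 for the same genes, with none passing. In the overexpression group against 5NC, the values of the 4 genes with 1 library left out ran from 0.28, for Spaca1 without 5NC replicate 1, to 0.50.

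**Figure D3:**
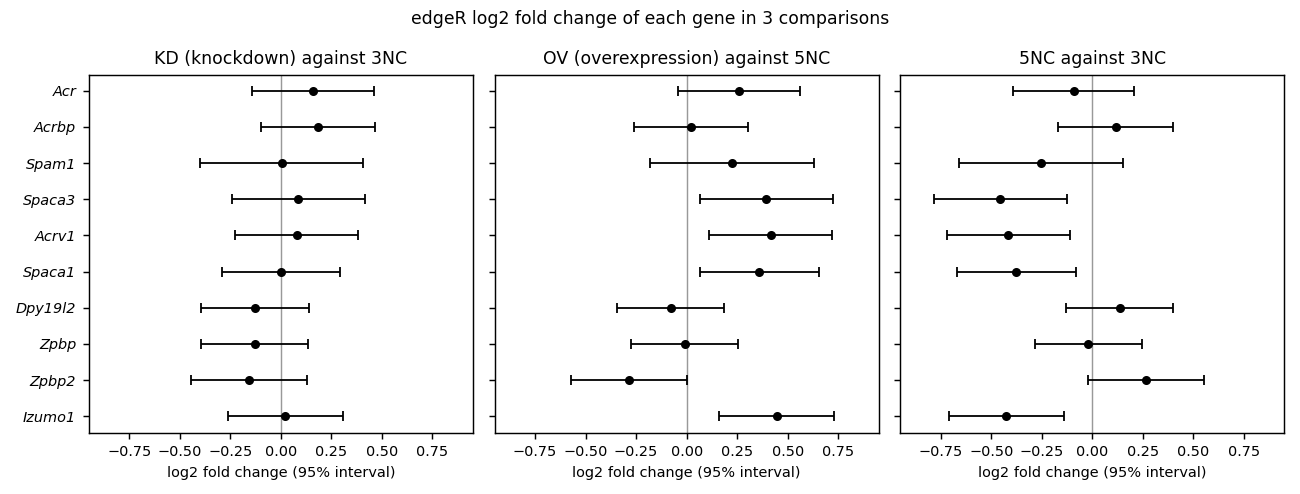
Log2 fold change of the 10 genes (points) with 95% intervals from the edgeR fit in 3 comparisons, where the second and the third share the 5NC libraries. In the left panel (KD, knockdown) every interval holds 0, and in the other comparisons Izumo1, Acrv1, Spaca3 and Spaca1 lie to 1 side of it without passing after adjustment.

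Whether the 2 treatments differed in their effects, each against its own control, was tested in the same fit. No gene of the set passed, as against 0.0244% of all tested genes. Izumo1 had the smallest unadjusted p of the set, with a difference of -0.42 (SE 0.18) and an adjusted p of 0.9999 by edgeR. It was followed by Spaca1 with a difference of -0.36 (95% interval -0.77 to 0.06). Without 3NC replicate 3 these differences were -0.23 for Izumo1 and -0.16 for Spaca1. The knockdown effect was above the overexpression effect in 2 of the 10 genes, Acrbp and Zpbp2, by 0.16 and 0.13.

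Marker lists of other cells are given beside these values. The summed level of 12 round spermatid genes was 4849 to 5659 CPM in 5NC, 5435 to 6536 in the overexpression group, 4793 to 6392 in 3NC and 5616 to 6652 in the knockdown group, and no gene of that list was at 0. The 10 genes had a summed level of 1950.2 to 2066 CPM in 5NC, 2083 to 2147 in the overexpression group, 1798 to 2409 in 3NC and 1953 to 2160 in the knockdown group. By summed level the 5NC and overexpression ranges overlapped for the round spermatid list and not for the 10 genes. By mean log2 CPM they did not overlap for either, at 8.12 to 8.29 in 5NC and 8.29 to 8.58 in the overexpression group for the round spermatid list, and 7.28 to 7.38 and 7.49 to 7.56 for the 10 genes. The median log2 fold change of the round spermatid list in the overexpression group against 5NC was 0.25, with 12 of 12 genes above 0. Of this list 3 lay wholly higher and 0 passed. For the 10 genes the median was 0.24, with 7 of 10 above 0 and 4 wholly higher, beside 11.3% of all tested genes wholly higher. The 10 genes ran from -0.29 for Zpbp2 to 0.45 for Izumo1 in this comparison, and so went both ways. In 5NC against 3NC the medians were -0.17 for the round spermatid list, -0.18 for a list of 12 elongating spermatid genes and -0.17 for the 10 genes. In the same order, 1 of 12, 3 of 12 and 3 of 10 genes were above 0. Those wholly lower in 5NC numbered 2, 1 and 4, beside 6.17% of all tested genes. The summed level of the 10 genes was highest in 3NC replicate 3.

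Levels were then given relative to the mean log2 CPM of the round spermatid list in the same library, a measure chosen after the values were seen. On this scale Acrv1 was still lowest in 5NC, at -1.17 to -1.04 against -1.03 to -0.73 in the other 9 libraries. Spaca3, Spaca1 and Izumo1 were no longer below all the others, with Spaca3 at -2.19 to -2.01 in 5NC and -2.04 to -1.68 elsewhere. Acrbp was above the other 9 in 5NC, at 0.39 to 0.56 against 0.04 to 0.30. On this scale 2 of the 10 genes thus had 5NC below or above all the others, beside 11.4% of all tested genes. In the overexpression group against 5NC the differences on this scale ran from -0.56 for Zpbp2 to 0.17 for Izumo1, with values of -0.36 for Dpy19l2, -0.28 for Zpbp, -0.25 for Acrbp and 0.13 for Acrv1. The groups overlapped except for Acrbp, wholly lower, and Acrv1, wholly higher, beside 33% of all tested genes that did not overlap. In 5NC against 3NC, Zpbp2 (0.46) and Acrbp (0.30) were wholly higher and Acrv1 (-0.21) and Spaca3 (-0.25) wholly lower, where 16.8% of all tested genes did not overlap. In the knockdown group against 3NC, Dpy19l2 (-0.26) was wholly lower and the other 9 overlapped, where 11.6% of all tested genes did not overlap. These values on the relative scale have no test. The part of the round spermatid share in these values was not tested.

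The mean log2 CPM of 5 red blood cell genes was 0.15 to 0.76 in 5NC and 1.78 to 3.04 in the other 9 libraries, while their summed level was 48.7 to 56.5 CPM in 5NC, 52.0 to 102 in the overexpression group, 40.3 to 81.3 in 3NC and 44.3 to 59.1 in the knockdown group. The low mean in 5NC was that of 2 of the 5 genes, Hbb-bs and Hbb-bt, which passed the edgeR threshold in both comparisons with 5NC and are named after their values were seen. The other 3 did not pass. Of all tested genes, 0.311% passed in the overexpression group against 5NC and 0.128% in 5NC against 3NC. Hbb-bs and Hbb-bt are beta globins with near copies, and reads could be split among them. The summed level of 10 spermatocyte genes was 1531 to 2108 CPM in 5NC and 1584 to 1962 in the overexpression group. Their median log2 fold change in the overexpression group against 5NC was -0.18, opposite in sign to that of the 10 genes. Of this list 1 gene passed, Spo11, which makes the DNA breaks of meiosis and is named after its values were seen, at -0.51 (SE 0.09) with an adjusted p of 0.0452 by edgeR. The summed level of 12 elongating spermatid genes was 17733 to 20984 CPM in 5NC and 19181 to 22470 in the overexpression group. Their median log2 fold change there was 0.20, with 10 of 12 above 0, 4 wholly higher and 0 passing. The share of all tested genes that lay wholly higher there was 11.3%. The 4 tested epididymal genes summed to 14.0 to 311 CPM in 5NC, 34.6 to 81.4 in 3NC, 0.798 to 19.0 in the knockdown group and 0.921 to 1.19 in the overexpression group, so that this tissue's genes were above the overexpression group in both control groups. White blood cell genes, 11 in number, summed to 419 to 438 CPM in 5NC and 439 to 445 in the overexpression group. For 9 Leydig cell genes the median log2 fold change in the knockdown group against 3NC was -0.42, with 3 above 0 and 0 passing. For 9 spermatogonial genes it was -0.17 in the overexpression group against 5NC, with 2 above 0 and 0 passing. The part of these lists in the results was not tested.

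Across libraries the 10 genes can be described by 3 sets with loose borders. The closest pairs of the first set, which holds Acrv1, Spaca3, Izumo1, Spaca1 and, less closely, Spam1, had r of 0.988 for Acrv1 with Spaca3, 0.948 for Acrv1 with Izumo1 and 0.940 for Spaca1 with Izumo1. The second set was Zpbp2, Dpy19l2 and Zpbp, with r of 0.889 for Zpbp2 with Dpy19l2 and 0.857 for Zpbp with Dpy19l2. The third was the pair of Acr and Acrbp. Some pairs across sets were closer than pairs within the first, with r of 0.697 for Acr with Acrv1, 0.672 for Spam1 with Zpbp and 0.628 for Acr with Spaca3, against 0.610 for Spam1 with Acrv1 and 0.599 for Spam1 with Spaca3. Spam1 was closer to the other members of its set, with r of 0.885 for Spaca1 and 0.741 for Izumo1. These values are descriptions over 12 libraries that share scaling and cell makeup, and the sets were named after the values were seen.

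3NC replicate 3 deviated by +0.41 to +0.52 on the log2 scale in the 5 genes of the first set and by +0.18 to +0.28 in the second, while Acr deviated by +0.06 and Acrbp by -0.07. 5NC replicate 2 deviated in opposite directions in different sets, by -0.38 for Izumo1, -0.34 for Acr and +0.36 for Zpbp2. 3NC replicate 2, a library with high Ptprc, was below the mean in all 10 genes, at -0.34 to -0.08, whereas knockdown replicate 1, the other such library, ranged from -0.31 for Zpbp2 to +0.19 for Spaca3.

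**Figure D4:**
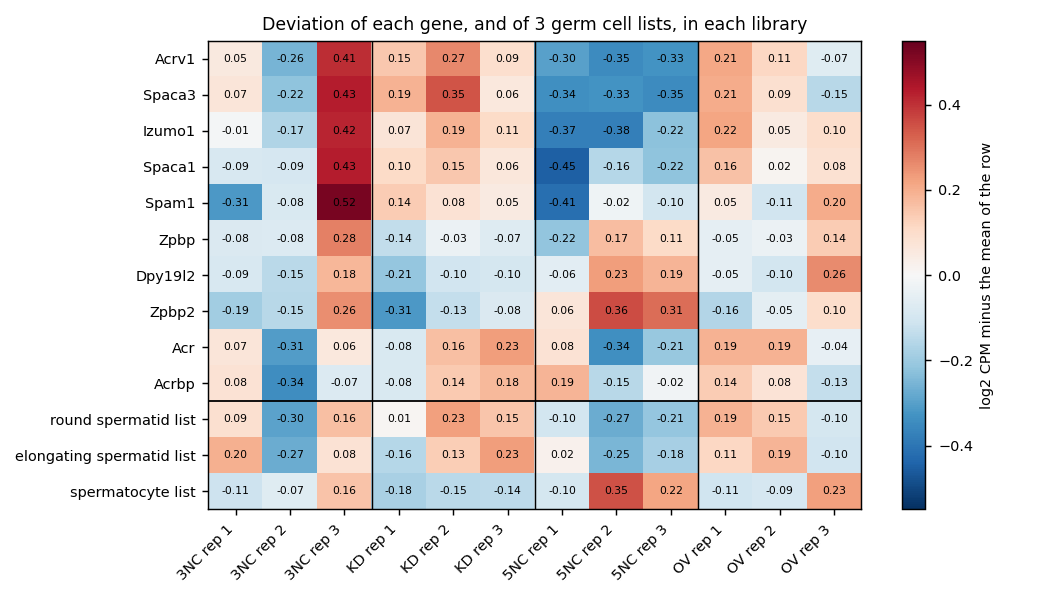
Log2 CPM minus the mean of the row for the 10 genes and, under the line, for the mean of 3 germ cell lists, in the 12 libraries. 3NC replicate 3 is high in most rows, the 5NC libraries are low for Acrv1, Spaca3, Izumo1 and Spaca1, and Zpbp, Dpy19l2 and Zpbp2 are high in the 4 libraries where the spermatocyte list is high.

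Other genes of the same processes were read from 5 lists with 78 names, of which 75 had a row and 73 were tested. In none of the 3 comparisons did a gene of these lists pass the threshold. At an unadjusted edgeR p under 0.05 in the knockdown group against 3NC, there were 0 of 18 genes of acrosome formation, 1 of 20 of acrosomal contents and membrane, 1 of 9 of sperm-egg fusion, 0 of 18 of zona binding and its chaperones, and 1 of 8 of acrosome reaction and egg activation, all with the higher level in the knockdown group. In the overexpression group against 5NC these counts were 2, 7, 4, 3 and 2, all higher in the overexpression group. In 5NC against 3NC they were 2, 5, 5, 4 and 3, lower in 5NC except for 2 of the last list. Over all tested genes, 5.64%, 11.9% and 10.8% had such a p in the 3 comparisons, in either direction.

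The median log2 fold changes of the lists in the overexpression group against 5NC were 0.14 for acrosome formation, 0.25 for contents and membrane, 0.29 for sperm-egg fusion, 0.06 for zona binding and 0.07 for acrosome reaction. The medians in the knockdown group against 3NC were 0.01, 0.03, 0.16, -0.06 and -0.04. In 5NC against 3NC they were -0.12, -0.22, -0.30, -0.08 and -0.14. The fusion list had the highest median of the 5 lists in both treated arms and the lowest between the controls, and its values in the overexpression group and between the controls share the 5NC libraries.

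Among fusion genes, Dcst1, a sperm membrane protein needed for fertilization, had the smallest p in both treated arms. Dcst1 was at 89.3, 93.8 and 88.7 CPM in the knockdown group and 77.6, 57.5 and 76.2 in 3NC. In the overexpression group it stood at 93.3, 91.4 and 72.8 CPM, and in 5NC at 62.1, 53.2 and 55.9. Both treated groups lay wholly above their own control, with log2 fold changes of 0.36 (SE 0.13) and 0.59 (SE 0.13). The adjusted p by edgeR were 0.764 and 0.0969. Tmem81 had the smallest p of this list between the controls, with a log2 fold change of -0.63 (SE 0.17) in 5NC and an adjusted p of 0.240 by edgeR.

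In the other lists the genes with the smallest p did not pass either. For the overexpression group against 5NC they were Actl9, an actin-like protein of the sperm head, at 0.35, Tmem190 at 0.52, Adam1a, a subunit of the fertilin complex, at 0.34 and Kcnu1, the sperm potassium channel, at 0.50. For the knockdown group against 3NC they were Pick1, which acts in vesicle traffic from the Golgi to the acrosome, at 0.36, Spaca4 at 0.55, Adam5 at -0.23 and Cplx1, a complexin that clamps vesicle fusion, at 0.64. For 5NC against 3NC they were Spata46 at -0.30, Hyal5, a hyaluronidase, at -0.43, Adam6b at -0.41 and Cplx1 at 0.71. Adam1a and Adam6b have near copies, Adam1b and Adam6a, and reads could be split between them. Cplx1 was low, at 1.86 to 4.50 CPM over the 12 libraries.

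**Figure D5:**
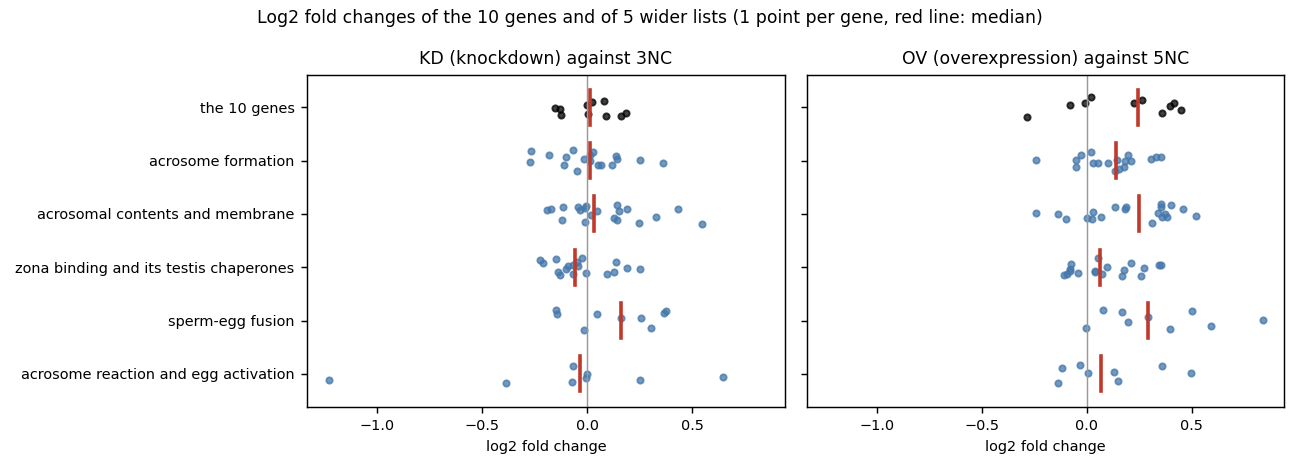
Log2 fold changes of the 10 genes and of the tested genes of 5 lists, 1 point per gene, with the median as a red line, in the knockdown group against 3NC (left) and the overexpression group against 5NC (right). The medians lie between -0.06 and 0.16 on the left and between 0.06 and 0.29 on the right.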

How the data were processed

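RNA-seq of 12 whole-testis libraries was analysed, 3 in each of 4 groups taken from the sample titles. Per the study's methods, messenger RNA was selected with oligo(dT) beads, sequenced on a HiSeq 2500 and aligned to mouse genes with SOAPaligner 2.20. The labels name build mm10. The authors deposited estimated counts per gene, which hold fractions for 12% of the values in the table and for 0 of the 120 values of the 10 genes, and RPKM values, which they scaled for depth and gene length. The sharing of reads among genes and any use of strand are not given in the sources used here. A further 18 per-sample columns in the table were left out.

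Estimated counts were rounded, genes with few reads were removed with filterByExpr (4400 of 20788), and 1 model with a term for each group was fitted to all 12 libraries after TMM scaling. edgeR 4.0.16 in R 4.3.3 gave quasi-likelihood tests, adjusted by the Benjamini-Hochberg method over 16388 genes with a threshold of 0.05. Intervals are at 95% and cover the spread between libraries. Log2 CPM used a prior count of 2. Pairing by replicate number was looked at by the correlation of same-numbered libraries' deviations from their group means. The values ran from -0.641 to 0.386, and the main fit did not pair libraries. With 3 libraries in a group, such values cannot exclude a batch shared by replicate number. No 2 libraries of a group agreed within sampling noise (lowest chi-square per degree of freedom 3.55). Scripts were tested on simulated data. Gene positions are from GENCODE vM21, on GRCm38, the assembly that mm10 names. Promoter windows are from RefSeq, GRCm38.p6.

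The alternatives were other scaling, no filter, the 6 libraries compared alone, a replicate block, DESeq2 1.42.0, limma 3.58.1 on log2(RPKM + 0.1) or log2(RPKM + 1), and libraries left out. Named individually were the 10 genes, per wider list the gene with the smallest p in each comparison, the genes most like the 10, and defining markers of cell types. The 10 genes and the lists were chosen with earlier results of these data known.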

Additional observations from a re-analysis of the deposited data

How the results depend on the processing

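None of the 10 genes passed in any comparison under any alternative. Of 910 values recomputed for them, 861 kept their direction and 49 changed sign, none of them passing. The smallest adjusted p under any alternative was 0.0604, for Izumo1 in the overexpression group against 5NC without 3NC replicate 3 (range for this value 0.0604 to 0.646). Leaving out 1 library moved the median log2 fold change of the 10 genes over -0.0848 to 0.2169 in the knockdown group against 3NC, -0.2715 to 0.0044 in 5NC against 3NC and -0.2575 to -0.0115 in the difference of effects, and the highest value came in each case without 3NC replicate 3. In the overexpression group against 5NC, genes of the 5 wider lists that passed numbered 0, but 3 with DESeq2 (Dcst1, Tmem95 and Kcnu1), 2 without both 3NC replicate 2 and knockdown replicate 1 (Dcst1 and Adam1a), and 0 to 1 with a single library left out, with 1 reached without 3NC replicate 2 (Dcst1) or without 3NC replicate 3 (Kcnu1). Tmem95 is named for passing there. With a replicate block, 0 of the 10 genes passed, and the genes that passed among all tested were 21 against 51 in the overexpression group against 5NC, 5 against 21 in 5NC against 3NC and 2 against 4 in the difference of effects. Over all genes, DESeq2 called 313 in the overexpression group against 5NC, 166 in 5NC against 3NC, 42 in the difference and 16 in the knockdown group against 3NC, where edgeR called 0 with 924 at an unadjusted p under 0.05. Among all tested genes, the overexpression group against 5NC gave 107 with only the 6 libraries compared, 82 with limma on log2(RPKM + 0.1), 159 without both 3NC replicate 2 and knockdown replicate 1, and 9 to 87 with 1 library left out. 5NC against 3NC gave 7 with only the 6 libraries, 33 with no scaling factor, 35 with limma and no filter, 45 without both of those libraries, and 3 to 35 with 1 left out. The difference of effects gave 9 with limma and no filter and 2 to 10 with 1 left out, and the knockdown group against 3NC gave 0 to 12. The cause was not tested. Depth adds a counting SD of at most 3.53% to a value of these genes.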

Other observations

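Genes whose log2 CPM moved most like the mean of the 10 genes over the 12 libraries were Sord (Pearson's r 0.974), a sorbitol dehydrogenase used in sperm energy supply, Ddhd1 (0.971), a phospholipase, Gykl1 (0.969), a testis glycerol kinase-like gene, Spata45 (0.967) and Cpa5 (0.963), among 15403 genes compared. The 10 genes themselves were left out of the genes compared. Outside them, the gene most like Acrv1 was Lyzl1 (0.978), a lysozyme-like sperm gene of the same family as Spaca3. For Acr it was Sox30 (0.982), a transcription factor of spermatids, for Acrbp Grin2d (0.986) and for Spaca3 Phka2 (0.972). For Izumo1 it was Deup1 (0.974), for Spaca1 Ppil6 (0.980) and for Spam1 Efhb (0.976). For Zpbp2 it was Acyp1 (0.983), for Zpbp Fbxo30 (0.978) and for Dpy19l2 Nol8 (0.985). Acrv1 and Spaca3 were closer to each other, with r of 0.988, than to Lyzl1 and Phka2. These are the highest of many values over 12 libraries that share depth, scaling and cell makeup, and they are given as descriptions.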
